A study of Mus musculus with 4 samples.

Results

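The 10 genes described here, all linked to the lipid output of the sebaceous gland, were measured in newborn mouse epidermis: Awat1, Awat2, Dgat2l6, Mc5r, Scd1, Scd3, Elovl3, Krt79, Pparg and Fasn. They were chosen by symbol, and the 15 transcript values that carry these symbols were summed per gene, giving 10 of the 45803 symbols measured. Values are FPKM, fragments per kilobase of transcript scaled to the size of the library. With a minimum of 1 FPKM in at least 2 of the 4 libraries, 9 of the 10 entered the test over 13817 genes, and Mc5r did not. Of the 10, 7 encode enzymes of lipid synthesis, while Mc5r and Pparg encode receptors and Krt79 a keratin of the duct and hair canal.

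Sebocytes are modified epidermal cells that fill with lipid droplets and burst to release sebum. In these cells fatty acids are built from acetyl units, elongated, given a double bond and then joined to glycerol, to cholesterol or to fatty alcohols, the last of which makes the wax esters that mark sebum. The nuclear receptor PPARγ drives sebocyte differentiation, and the melanocortin 5 receptor is required for normal sebum output in mice.

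The libraries came from epidermal keratinocytes of newborn mice at postnatal day 0, with no treatment given. The 2 control libraries have the genotype K14Cre,Mettl14F/+, with 1 floxed Mettl14 allele, and the 2 conditional knockout libraries (cKO) have K14Cre,Mettl14F/F. All 4 carry Cre under the keratin 14 promoter, which is active in basal keratinocytes and in the cells that descend from them, sebocytes included. Mettl14 encodes a subunit of the RNA m6A methyltransferase. Each genotype has a library numbered 1 and a library numbered 2. The labels do not say whether separate animals were used or what a number shares, so any p-value here covers the spread of these 4 libraries alone, and that spread may be technical.

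Implied depth was 17382110 and 23397789 reads or fragments for controls 1 and 2 and 16895402 and 25693590 for cKO 1 and 2. The libraries numbered 2 were therefore the deeper ones in both genotypes. Mettl14 itself stood at 7.00 and 6.4 FPKM in the controls, then 5.89 and 3.79 in the cKO pair, a log2 difference of -0.42 ± 0.26 (SE; limma adjusted p = 0.959). Keratinocyte markers were abundant: the 4 basal markers Krt5, Krt14, Krt15 and Trp63 summed to 2343 to 4729 FPKM and the 5 suprabasal markers to 9190 to 19178 FPKM, although Krt1 is listed at 0 in every library. The 3 endothelial markers summed to 1.56 FPKM or less and the 4 skeletal muscle markers to 2.54 or less. Other lists were higher: the 4 melanocyte markers summed to 360 to 465 FPKM, the 6 dermal fibroblast markers to 84.6 to 116 and the 4 leukocyte markers to 19.7 to 45.8.

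With all 4 libraries most of the lipid genes were slightly higher in cKO, and none passed the test. Over the 9 genes tested, the median difference on log2(FPKM + 1), cKO minus control, was 0.21, against -0.03 over all genes tested. Within number 1 it was 0.18 and within number 2 it was 0.31. Its direction rested on the libraries included: the median was -0.06 without control 1 and -0.05 without cKO 2, and 0.49 without control 2 and 0.48 without cKO 1. Limma called 0 of the 9 members at an adjusted p of 0.05, and the background was 0.0% of all genes tested. The members were chosen with earlier results of these data known, so these counts describe the list and are not a test of it.

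Of the genes tested, Awat1, Awat2, Dgat2l6, Scd1, Scd3, Elovl3 and Fasn were higher in cKO within both replicate numbers, that is 7 of 9, where 31.8% of all genes tested were. Mc5r, outside the test, was also higher within both numbers. Krt79 was lower within both, 1 of 9 where 37.6% of all genes tested were, and Pparg was at -0.29 within number 1 and at 0.01 within number 2. Both cKO libraries exceeded both control libraries in 2 of the 9, Dgat2l6 and Fasn, against 16.2% of all genes tested. In bulk RNA, fewer cells of a type and less RNA per cell cannot be told apart, so these values do not separate the number of sebocytes from their content. Nor do they show which cells of the epidermis made the RNA.

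**Figure D1:**
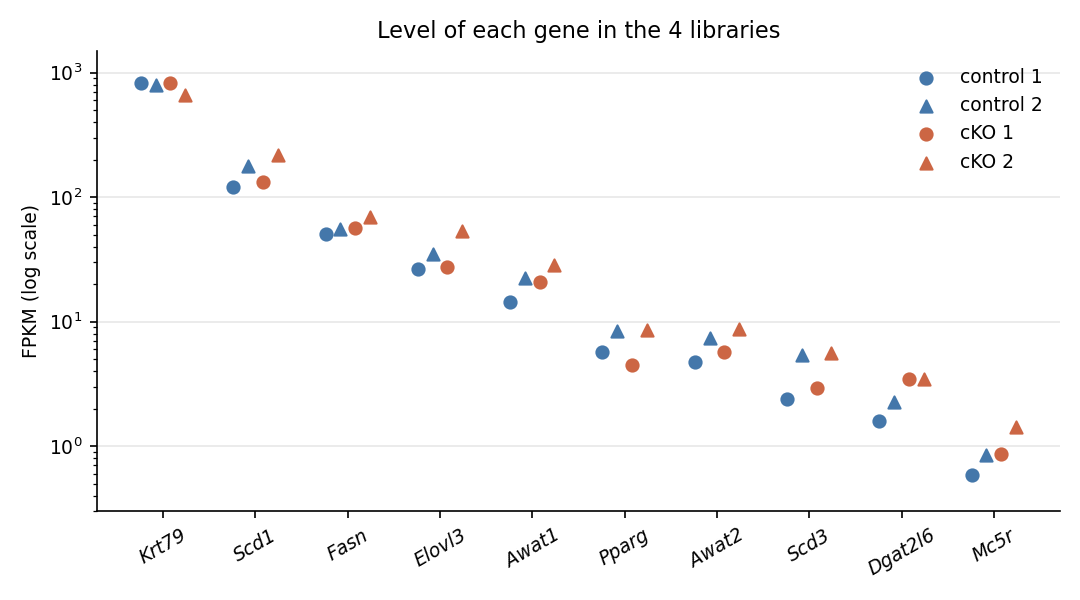
FPKM of each gene in the 4 libraries on a log10 axis, genes in order of mean level, with controls in blue, cKO in red, library 1 as a circle and library 2 as a triangle. Krt79 lies highest, at 665 to 828 FPKM, Mc5r lies lowest, at 0.59 to 1.41, and the genotypes overlap in 7 of the 10 genes. Among all genes tested, both cKO libraries lay above both controls in 16.2% and below both in 16.6%.

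**Figure D2:**
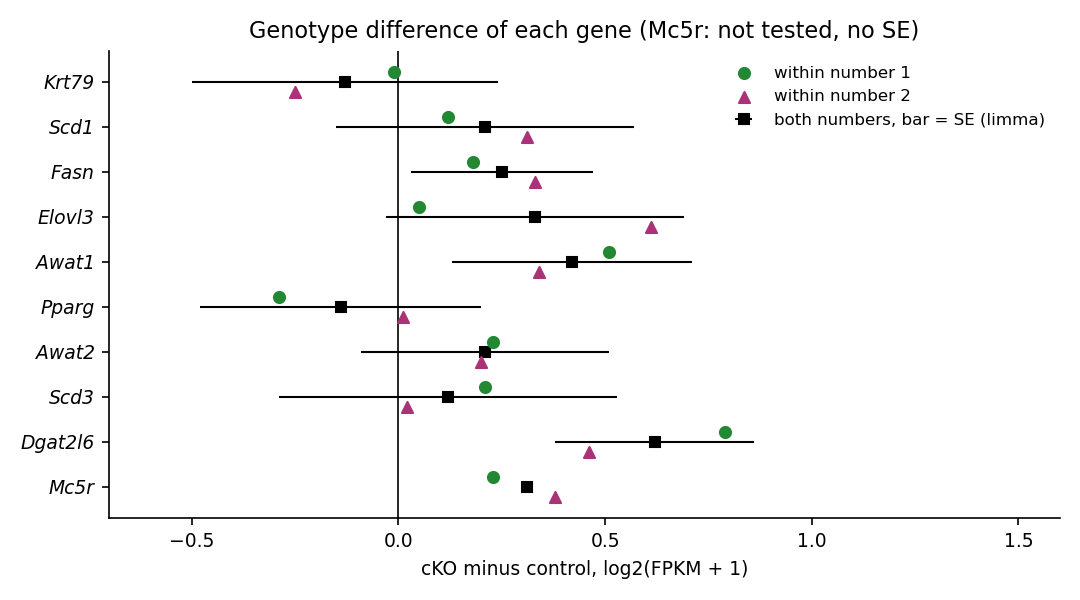
Difference of each gene, cKO minus control, on the log2(FPKM + 1) scale, with the pooled value as a square (bar: SE from limma) and the values within numbers 1 and 2 as a circle and a triangle. The pooled value runs from -0.14 for Pparg to 0.62 for Dgat2l6.

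Ordered by mean over the 4 libraries, the levels per transcript length ran from Krt79 at 776 FPKM through Scd1 at 162, Fasn at 57.9, Elovl3 at 35.6 and Awat1 at 21.4 to Pparg at 6.78, Awat2 at 6.63, Scd3 at 4.09, Dgat2l6 at 2.68 and Mc5r at 0.93. The ranges over libraries separated Krt79 from Scd1, Scd1 from Fasn, Awat1 from Pparg and Dgat2l6 from Mc5r. The ranges of the other neighbours in that order overlapped, so Fasn, Elovl3 and Awat1 on the one hand and Pparg, Awat2, Scd3 and Dgat2l6 on the other were not ordered beyond their spread from one gene to the next.

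Upstream sequence is shown for 6 of the members, to let the 3 acyltransferase genes of the X chromosome, which lie within 176.0 kb, be set against a duct keratin, a desaturase and the synthase. Each is the 250 bases before the RefSeq start (GRCm38.p6), 5′ to 3′ on the gene's own strand. Capitals mark any match, on either strand, to the TATA box TATAAA, to CCAAT, to the GC box GGGCGG, to the nuclear receptor core AGGTCA, to the E-box CACGTG or to the sterol response element TCACNCCAC. Awat1 is chrX:100571997-100572246 on the plus strand, Dgat2l6 chrX:100524588-100524837 plus and Awat2 chrX:100412588-100412837 minus, at the start of its main transcript. Scd3 is chr19:44203038-44203287 plus, Fasn chr11:120824548-120824797 minus and Krt79 chr15:101940325-101940574 minus.
Awat1: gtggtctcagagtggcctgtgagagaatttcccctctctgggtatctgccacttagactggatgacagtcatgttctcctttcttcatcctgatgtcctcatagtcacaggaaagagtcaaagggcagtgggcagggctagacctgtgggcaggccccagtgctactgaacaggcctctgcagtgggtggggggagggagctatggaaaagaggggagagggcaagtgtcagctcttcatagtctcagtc
Dgat2l6: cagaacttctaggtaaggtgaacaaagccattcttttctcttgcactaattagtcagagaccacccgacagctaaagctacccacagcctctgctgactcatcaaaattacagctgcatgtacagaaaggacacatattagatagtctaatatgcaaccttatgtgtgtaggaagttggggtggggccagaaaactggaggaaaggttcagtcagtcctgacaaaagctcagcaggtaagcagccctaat
Awat2: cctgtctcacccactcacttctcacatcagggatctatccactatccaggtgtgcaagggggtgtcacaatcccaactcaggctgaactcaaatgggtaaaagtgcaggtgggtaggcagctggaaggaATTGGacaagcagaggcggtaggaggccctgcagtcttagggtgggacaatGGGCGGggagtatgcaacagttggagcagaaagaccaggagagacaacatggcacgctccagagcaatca
Scd3: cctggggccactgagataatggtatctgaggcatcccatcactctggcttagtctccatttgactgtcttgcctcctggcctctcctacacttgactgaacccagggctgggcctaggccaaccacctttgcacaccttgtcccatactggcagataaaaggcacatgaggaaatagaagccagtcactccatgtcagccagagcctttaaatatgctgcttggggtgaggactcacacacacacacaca
Fasn: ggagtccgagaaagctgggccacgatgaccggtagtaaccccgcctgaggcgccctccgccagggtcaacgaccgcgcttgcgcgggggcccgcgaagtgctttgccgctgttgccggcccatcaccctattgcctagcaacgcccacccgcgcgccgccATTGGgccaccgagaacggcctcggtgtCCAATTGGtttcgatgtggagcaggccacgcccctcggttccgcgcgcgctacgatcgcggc
Krt79: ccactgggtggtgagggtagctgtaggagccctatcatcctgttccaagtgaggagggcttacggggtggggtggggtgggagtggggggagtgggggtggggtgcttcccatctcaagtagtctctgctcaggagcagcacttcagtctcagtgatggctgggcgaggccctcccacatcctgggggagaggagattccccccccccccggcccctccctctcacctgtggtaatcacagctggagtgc

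Of these windows, the one before Fasn held 3 copies of CCAAT, at 62, 59 and 90 bases before the start, the first on the gene's strand and the others on the opposite one, with the copies at 62 and 59 overlapping. The Awat2 window held 1 CCAAT, at 121 bases on the opposite strand, and 1 GGGCGG, at 70 bases. The windows of Awat1, Dgat2l6, Scd3 and Krt79 held no match to any of the 6 motifs. Among 32851 windows of the same length in the RefSeq table, CCAAT was present in 33.8%, GGGCGG in 32.7%, AGGTCA in 14%, TATAAA in 12.4%, CACGTG in 6.02% and TCACNCCAC in 1.05%. A match is a description of the letters and not a site.

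Mc5r, the receptor for melanocortin peptides on sebocytes (ENSMUSG00000007480, GRCm38 chromosome 18, 68337596 to 68342446, plus strand), was the lowest of the genes. It measured 0.59 and 0.85 FPKM in controls 1 and 2, then 0.87 and 1.41 in cKO 1 and 2, from 40.0, 77.6, 57.4 and 141 recovered reads. Both cKO libraries exceeded both controls, but cKO 1 exceeded control 2 by only 0.02 FPKM, about the worth of 1 or 2 reads, of which 1 is worth 0.00997 to 0.0152 FPKM. The means were 0.72 ± 0.184 and 1.14 ± 0.382 (SD, n = 2 libraries each), 0.31 apart on the log2(FPKM + 1) scale (number 1 alone 0.23, number 2 alone 0.38), with no test. With a pseudocount of 0.1 in place of 1 the difference was 0.58. Leaving out a library gave 0.12 without cKO 2, 0.20 without control 1, 0.42 without control 2 and 0.49 without cKO 1.

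Pparg encodes the nuclear receptor PPARγ (ENSMUSG00000000440, chromosome 6, 115360951 to 115490399, plus). It measured 5.67 and 8.45 FPKM in controls 1 and 2, then 4.46 and 8.53 in cKO 1 and 2. In each genotype library 2 was the higher, and the cKO libraries lay on either side of the control range. The log2 difference was -0.14 ± 0.34 (limma adjusted p = 0.972), smaller than its error. Its direction rested on the libraries included: it was 0.11 without control 2 and 0.26 without cKO 1.

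Fasn encodes fatty acid synthase, which builds palmitate from malonyl units (ENSMUSG00000025153, chromosome 11, 120805846 to 120824547, minus). It stood at 50.1 and 55.1 FPKM in the controls, then 56.7 and 69.6 in the cKO pair. Both cKO libraries exceeded both controls, by 1.61 FPKM at the nearest. The means were 52.6 ± 3.53 and 63.1 ± 9.07 (SD, n = 2 libraries each), a log2 difference of 0.25 ± 0.22 (limma adjusted p = 0.959). It was between 0.11 and 0.40 when any 1 library was left out, without a change of direction.

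Elovl3 encodes an elongase of saturated and monounsaturated very long chain fatty acids, made in sebaceous glands, hair follicles and brown fat (ENSMUSG00000038754, chromosome 19, 46131897 to 46135694, plus). It stood at 26.5 and 34.7 FPKM in the controls, then 27.5 and 53.6 in the cKO pair. The single high library was cKO 2, while cKO 1 lay inside the control range. The log2 difference was 0.33 ± 0.36 (limma adjusted p = 0.959), with 0.05 within number 1 and 0.61 within number 2, and it was -0.14 without cKO 2.

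Scd1 and Scd3 encode members of the stearoyl-CoA desaturase family, which introduces the double bond of monounsaturated fatty acids. Loss of Scd1 causes the atrophied glands of asebia mice, and Scd3 is known from sebocytes and Harderian gland. The genes lie within 204.6 kb of chromosome 19, Scd3 (ENSMUSG00000025202, 44203269 to 44244016, plus) and Scd1 (ENSMUSG00000037071, 44394455 to 44407879, minus), with the close copies Scd2 and Scd4 between them, so reads can be split among the 4. Scd1 stood at 121 and 177 FPKM in the controls, then 132 and 219 in the cKO pair, and Scd3 measured 2.41 and 5.44 in the controls, then 2.95 and 5.55 in the cKO pair. In both genes library 2 was higher than library 1 in either genotype, and the genotypes overlapped. The log2 difference of Scd1 was 0.21 ± 0.36 (limma adjusted p = 0.962) and that of Scd3 0.12 ± 0.41 (0.982). Both turned when a library numbered 1 of the control or numbered 2 of the cKO was left out, to -0.06 and -0.15 for Scd1 and to -0.34 and -0.25 for Scd3. The copy Scd2 measured 92.9 and 84.1 in the controls, then 101 and 97.0 in the cKO pair, and Scd4 0.21 and 0.28 against 0.99 and 0.65, values named after they were seen.

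Awat1 and Awat2 encode wax synthases, acyl-CoA wax alcohol acyltransferases, and Dgat2l6 encodes a related acyltransferase of the DGAT2 family. The 3 lie within 176.0 kb of the X chromosome: Awat2 (ENSMUSG00000031220, 100402221 to 100442717, minus), Dgat2l6 (100524838 to 100546144, plus) and Awat1 (ENSMUSG00000015665, 100572251 to 100578205, plus). Awat1 stood at 14.3 and 22.3 FPKM in the controls, then 20.8 and 28.4 in the cKO pair, and Awat2 measured 4.73 and 7.41 against 5.70 and 8.68. In both, cKO exceeded control at the same number, and cKO 1 lay below control 2, so the genotypes overlapped. The log2 difference of Awat1 was 0.42 ± 0.29 (limma adjusted p = 0.959), with 0.51 and 0.34 within numbers 1 and 2, and it kept its sign without any 1 library, between 0.12 and 0.73. That of Awat2 was 0.21 ± 0.30 (adjusted p = 0.959) and became -0.06 without control 1 and -0.05 without cKO 2.

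With FPKM summed over its transcripts, Dgat2l6 (ENSMUSG00000067597) had the largest difference of the 9 genes tested. It measured 1.58 and 2.24 FPKM in control and 3.45 in each cKO library, from 84.1, 143, 120 and 179 recovered reads in control 1, control 2, cKO 1 and cKO 2. The cKO libraries exceeded both controls by at least 1.21 FPKM, and the ratio of means was 1.81. On the log2 scale the difference was 0.62 ± 0.24, from 0.79 within number 1 to 0.46 within number 2, and limma's adjusted p was 0.959. In that fit it was the only member with an unadjusted limma p under 0.05 (0.0446), as 686 of the 13817 genes tested were, 454 higher and 232 lower. Without the low-value filter that unadjusted limma p was 0.0785, and on coding transcripts alone it was 0.00787 (adjusted p = 0.829). With the replicate number as a block in limma it was 0.00816 (adjusted p = 0.0767), and Awat1 was then also under 0.05, at 0.00831 (adjusted p = 0.0773). The difference lay between 0.46 and 0.79 without any 1 library. With limma-voom on recovered reads it was 0.35 (unadjusted p = 0.307), below Awat1 at 0.44, so the first rank was lost.

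Krt79, a type II keratin of the sebaceous duct and the hair canal (ENSMUSG00000061397, chromosome 15, 101929332 to 101940324, minus), was the most abundant of the genes. It stood at 828 and 789 FPKM in the controls, then 823 and 665 in the cKO pair. The lowest library was cKO 2, and the other 3 lay close together. The log2 difference was -0.13 ± 0.37 (limma adjusted p = 0.976), -0.01 within number 1 and -0.25 within number 2, and it was 0.03 without cKO 2. The 7 genes listed for the upper hair follicle and hair canal had a median difference of 0.07. They summed to 1259, 1299, 1067 and 1149 FPKM in control 1, control 2, cKO 1 and cKO 2, most of it Krt17. Their part in the value of Krt79 was not tested.

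The libraries differed in these genes more by replicate number than by genotype. Number 2 exceeded number 1 in both genotypes in 7 of the 9 genes tested, against 46.6% of all genes tested, and the exceptions were Dgat2l6 (equal in cKO) and Krt79. The median difference of number 2 minus number 1 was 0.54 on the log2(FPKM + 1) scale, against 0.08 over all genes tested, and 0.50 in control and 0.53 in cKO. In 7 of the 9 the number difference was larger in size than the genotype difference, where 62.3% of all genes tested had that order, the exceptions being Dgat2l6 and Fasn. It was largest in Scd3 at 0.82, followed by Elovl3 at 0.66, Pparg at 0.65 and Scd1 at 0.64. The numbers also went with depth, the suprabasal marker sum (19178 and 16455 FPKM in the libraries numbered 1, 9190 and 10037 in those numbered 2) and the basal marker sum (3688 and 2343 against 4729 and 3657). Most of the fall in the suprabasal sum was Krt10, at -1.24 on the log2 scale by number. Ivl was also lower, at -1.07, while Krtdap was at -0.07 and Lor at 0.20. The part of depth and of these markers in the values of the members was not tested.

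**Figure D3:**
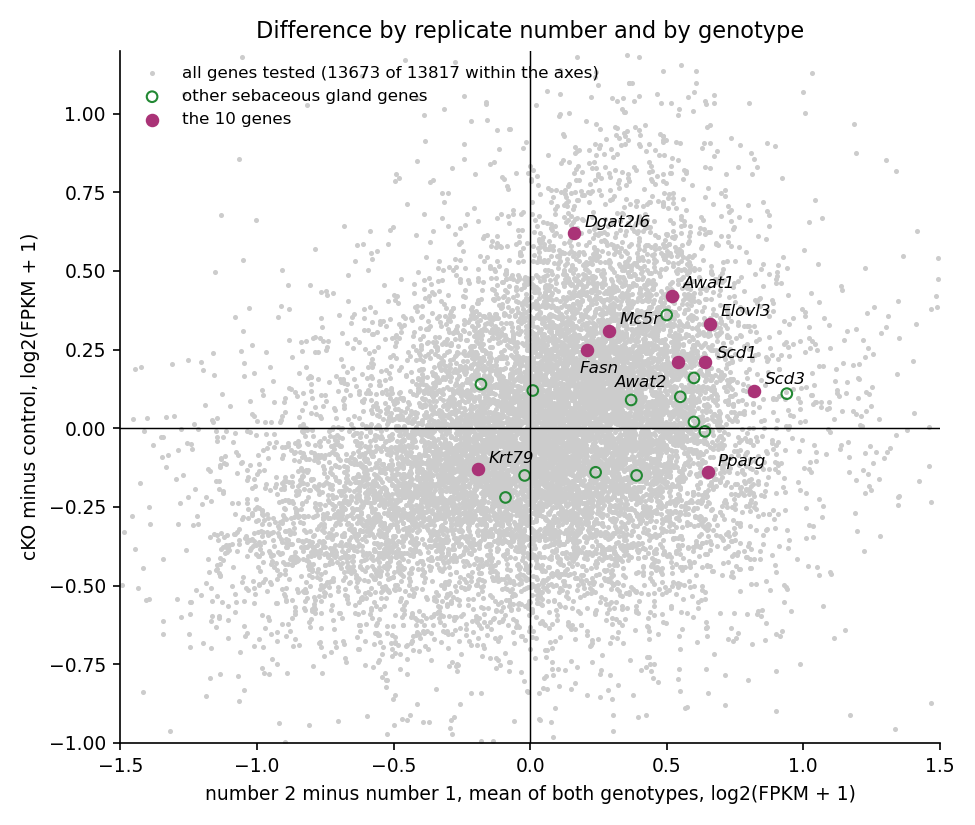
Difference by replicate number (x axis, number 2 minus number 1, mean of both genotypes) against difference by genotype (y axis, cKO minus control), both on log2(FPKM + 1). Grey points are all genes tested within the axes, open circles other sebaceous gland genes and filled circles the 10 genes. Scd3, Elovl3, Pparg and Scd1 lie farthest right, Dgat2l6 lies highest and Krt79 lies at the left.

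The deposited transcript values of Dgat2l6 went in opposite directions by genotype; how reads on shared exons were assigned to a transcript is not stated in the labels or headers. The coding transcript Dgat2l6-201, which has 7 exons, stood at 0.79 and 1.39 FPKM in the controls, then 2.94 and 2.99 in the cKO pair, a ratio of means of 2.72. The retained intron transcript Dgat2l6-202, which has 5 exons, stood at 0.79 and 0.85 in the controls, then 0.51 and 0.46 in the cKO pair, a ratio of 0.591. In both transcripts the genotypes did not overlap. Among all genes tested, cKO lay wholly above control in 16.2% and wholly below in 16.6%, and no such share was taken over transcripts. Dgat2l6-201 rested on few reads, 22.5 and 53.3 in the controls, then 81.5 and 126 in the cKO pair. On coding transcripts alone the log2 difference of the gene was 0.94, against 0.62 for all of them.

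Fasn had a coding transcript and 2 with a retained intron. Fasn-201, the coding one, was listed at 45.5 and 52.6 FPKM in the controls, then 49.0 and 63.3 in the cKO pair, a ratio of 1.14, and here cKO 1 lay below control 2. The retained intron transcript Fasn-202 was at 1.48 and 0.51 in the controls, then 3.32 and 3.71 in the cKO pair, and Fasn-203 at 3.17 and 2.02 against 4.39 and 2.58. The separation of the genotypes in the gene sum thus rested on the retained intron transcripts, and the coding transcript alone overlapped, with a log2 difference of 0.18. Recovered reads in control 1, control 2, cKO 1 and cKO 2 were 19.6, 9.09, 42.7 and 72.6 for Fasn-202. For Fasn-203 they were 53.8, 46.1, 72.4 and 64.7, against 7945 to 16338 for Fasn-201, so the separation rested on few reads.

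Pparg was listed through transcripts with different starts. Pparg-202, which starts at the upstream position 115360951, held nearly all of the signal at 5.58 and 7.30 FPKM in the controls, then 4.46 and 8.53 in the cKO pair, a ratio of 1.01. Pparg-201, which starts at 115422066, the start of the γ2 form known from adipocytes, was at 0.09 and 1.15 in control and listed at 0 in both cKO libraries. Its control reads were 2.76 and 47.5, so control 2 alone carried the signal. Awat2-202, a minor transcript of Awat2, was at 0.17 FPKM or less in all 4, and Awat2-201 carried that gene's values.

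**Figure D4:**
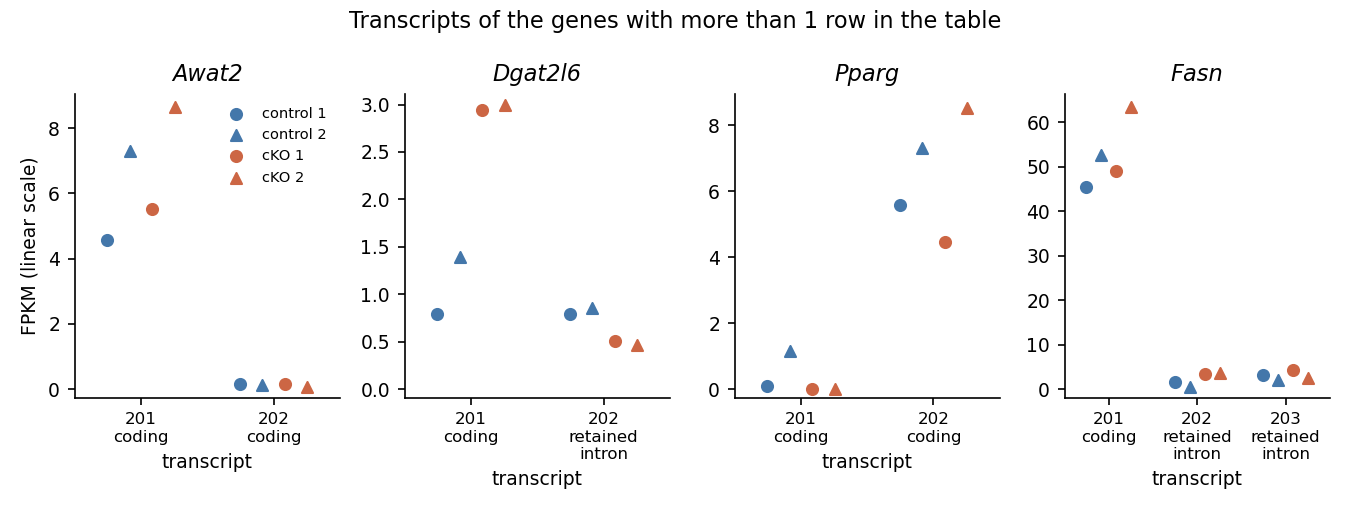
FPKM of the deposited transcripts of Awat2, Dgat2l6, Pparg and Fasn on a linear axis of its own for each gene, controls in blue, cKO in red, library 1 as a circle and library 2 as a triangle. The coding transcript of Dgat2l6 lies higher in cKO and its retained intron transcript lower.

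Other genes of the sebaceous gland and of lipid synthesis were taken from lists, and limma called 0 of their members. For comparison, 31.8% of all genes tested were higher and 37.6% lower in cKO within both numbers. Number 2 was higher in both genotypes in 46.6%. Of 14 other sebaceous gland genes 13 were tested: 4 were higher and 3 lower in cKO within both numbers, with a median of 0.09, and number 2 was higher in both genotypes in 10. Far2, a reductase that makes the fatty alcohols of waxes, stood at 28.9 and 36.6 FPKM in the controls, then 33.2 and 53.2 in the cKO pair, a log2 difference of 0.36 ± 0.29. Apoc1, the most abundant of the list, measured 147 and 209 against 139 and 226. Cidea and Plin2, which coat lipid droplets, were named after their values were seen: Cidea measured 13.2 and 24.4 in the controls, then 13.4 and 28.3 in the cKO pair, and Plin2 31.9 and 46.2 against 33.8 and 54.8. Their differences by number, 0.94 and 0.60, were larger than those by genotype, 0.11 and 0.16.

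Fatty acid synthesis, elongation and desaturation had 25 genes, 23 tested, of which 12 were higher and 7 lower within both numbers, with a median of 0.08. Its number difference had a median of -0.03, unlike the members' 0.54. Elovl4, the elongase of the ultra-long acyl chains of the epidermal barrier, stood at 264 and 239 FPKM in the controls, then 351 and 294 in the cKO pair, 0.36 ± 0.28. Of the dehydratases of the elongation cycle, Hacd1 stood at 3.68 and 4.92 in the controls, then 2.11 and 3.81 in the cKO pair, and Hacd2 at 22.5 and 21.6 against 27.7 and 25.7. Elovl1, another barrier elongase, and Dgat2, a general acyltransferase of triglyceride synthesis, were lower in the libraries numbered 2, by log2 -1.42 and -0.97, the opposite of Elovl3 and Awat1. Both were named after their values were seen.

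Glycerolipid, wax and sterol ester synthesis had 20 genes, 18 tested, with 9 higher and 8 lower within both numbers and a median of 0.11. Agpat2, which adds the second acyl chain of glycerolipids, stood at 13.4 and 15.1 FPKM in the controls, then 24.4 and 35.6 in the cKO pair, a log2 difference of 1.00 ± 0.25 with an adjusted p of 0.959. Lpin2, a phosphatidate phosphatase of the next step, was lower, at 11.2 and 14.1 against 7.43 and 9.03, -0.56 ± 0.23. Acsl1, an acyl-CoA synthetase and the most abundant of the list, measured 162 and 128 against 182 and 146.

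Of 19 PPARγ partners and known targets 12 were tested, 9 higher and 1 lower within both numbers, with a median of 0.24 by genotype and 0.47 by number. All 12 were higher in number 2 in both genotypes, as 46.6% of all genes tested were. Cebpd, a transcription factor that acts with PPARγ, stood at 1.41 and 3.11 FPKM in the controls, then 3.96 and 6.03 in the cKO pair, 0.91 ± 0.35, and Cd36, a fatty acid transporter, 5.33 and 6.39 against 7.86 and 8.49. Fabp5, the epidermal fatty acid binding protein and the most abundant, measured 1304 and 1699 against 1722 and 2446. None of these passed over all genes tested.

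Of the 11 SREBP, LXR and ChREBP regulators 8 were tested, 2 higher and 3 lower within both numbers, with a median of -0.01. Insig1, which retains the SREBP complex in the endoplasmic reticulum, stood at 18.6 and 19.6 FPKM in the controls, then 14.8 and 16.6 in the cKO pair, and Scap, the escort of SREBP, 30.8 and 37.0 against 33.2 and 47.8. Among the melanocortin genes 2 were tested of 9 listed: Mc1r, the melanocyte receptor, measured 12.7 and 9.70 in the controls, then 9.47 and 8.17 in the cKO pair, and Agrp, an antagonist ligand, 2.16 and 3.46 against 1.86 and 4.73. The 4 melanocyte markers had a median of -0.10. Mc4r and Mrap are listed at 0 in all libraries, and Asip was not matched to a symbol.

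**Figure D5:**
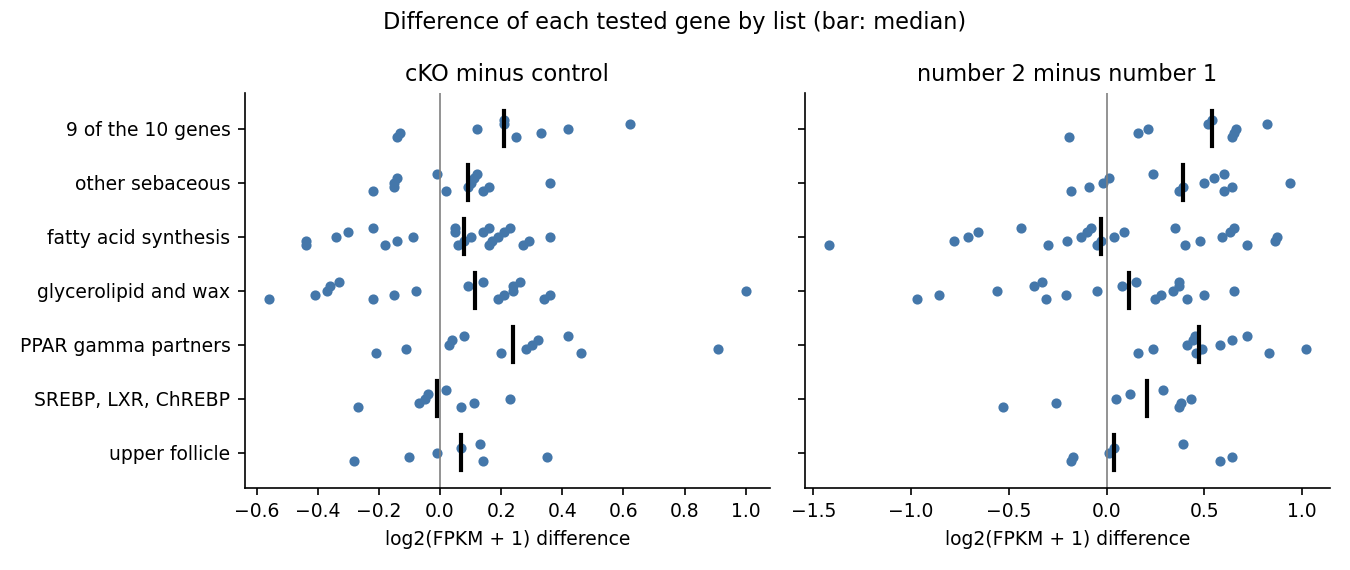
Difference of each tested gene on log2(FPKM + 1), by genotype in the left panel and by replicate number in the right panel, for the 9 of the 10 genes that were tested and for 6 further lists, with a vertical bar at each median. The median by number is 0.54 for these genes, -0.03 for fatty acid synthesis and 0.47 for PPARγ partners.

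Markers of other cell types were summed in each library. Of 9 adipocyte markers, 7 were below 1 FPKM in every library, and of these Lep and Cfd are listed at 0 throughout. The exceptions were Retn, at 3.23 to 6.79 FPKM, and Fabp4, at 1.19 to 2.71, the latter also on the PPARγ list. The summed level was 5.53 and 9.81 FPKM in the controls, then 4.71 and 7.95 in the cKO pair. Dermal fibroblast markers summed to 116 and 114 in the controls, then 84.6 and 92.0 in the cKO pair. Most of that fall was Dcn, at -0.72 on the log2 scale, against a median of -0.13 over the 6 markers. Of the 6, 3 were lower and 1 higher in cKO within both numbers. Col1a1 was at 0.05 and Col3a1 at 0.03. Leukocyte markers summed to 45.8 and 35.9 in the controls, then 27.5 and 19.7 in the cKO pair. All 4 leukocyte markers were below both controls in both cKO libraries, as 16.6% of all genes tested were. All 4 basal keratinocyte markers were lower in cKO within both numbers, as 37.6% of all genes tested were, with a median of -0.55. The part of these cell types in the values was not tested.

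The genes whose centred log2 profile over the 4 libraries lay nearest to the mean profile of the 9 tested genes (-0.32 in control 1, 0.11 in control 2, -0.12 in cKO 1 and 0.34 in cKO 2) were Ciao1, Hddc2, Ube2m, Szrd1 and Ndufa10. Ciao1, a factor of iron-sulfur protein assembly, stood at 10.46 and 14.53 FPKM in the controls, then 12.3 and 17.2 in the cKO pair. The Euclidean distances were 0.00957, 0.0135, 0.0219, 0.0219 and 0.0249, over 4 libraries. None is on the sebaceous lists. Awat2, at 0.0987, lay nearest of the members, with 137 other genes nearer, and Krt79, at 0.732, lay farthest, beyond the median of all genes tested at 0.587. A profile of 4 values is matched by many genes, so this order describes these libraries only.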

How the data were processed

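RNA sequencing was done on 4 libraries, 2 per genotype. The submitters' processing notes list fastp, HISAT2, HTSeq and the build GRCm38, with no role or version; how transcript values were made is not stated in the labels or headers. Per the file headers no unit is named: the authors deposited 110295 transcript rows, and the deposited values were taken as FPKM because value times transcript length, divided by 1000, summed to 1015550 to 1021998 per library; RPKM cannot be told apart. Each depth was chosen so that low values came nearest to whole multiples of the worth of 1 read. This used 1165 to 1407 values per library, from transcripts alone in their symbol and 300 to 1000 nt long. Of these, 94.7% to 95.5% were whole (tolerance 0.2 reads), a share partly fixed by that choice. The depths gave the recovered reads, also for genes with several transcripts. Columns named WT hold the heterozygous controls; group and number in their names gave the match. In 162 rows a spreadsheet had turned the symbol into a date, and all 162 were repaired from the transcript ID. The labels name both poly(A) selection and rRNA removal without saying which was used. Strand use is not given, so antisense reads cannot be told apart.

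FPKM were summed per symbol, and those reaching 1 FPKM in 2 or more libraries were tested on log2(FPKM + 1), which understates changes of low genes, with limma (3.58.1, R 4.3.3; mean-variance trend, genotype only, 2 residual degrees of freedom) and Benjamini-Hochberg adjustment at 0.05 over all 13817 genes. Coordinates are from GENCODE M21, which held 98.04% of the transcripts, and upstream windows from RefSeq. Scripts ran on Python 3.11.15 with pandas 2.3.3, numpy 2.4.6 and matplotlib 3.10.9. The fit was tested on simulated data. The members, gene lists and marker lists were chosen with earlier results of these data known. Named beside the members were, from each list, the 2 genes with the smallest unadjusted p and the 1 with the highest mean, and the 5 genes nearest in profile. The values of 1 gene so named are left out of the text. Alternatives were median-ratio scaling, a pseudocount of 0.1, no filter, protein-coding transcripts only, the replicate number as a block, limma-voom on recovered reads, each library left out and, added after seeing the data, equal column sums.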

Additional observations from a re-analysis of the deposited data

How the results depend on the processing

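Under the settings that keep all 4 libraries, each of the 66 member values kept its direction and no tested member passed the threshold. Part of the agreement in direction was fixed in advance. The replicate block and dropping the filter leave each difference as it was, so those values could not turn. Coding transcripts alone could change only Dgat2l6 and Fasn, the members with other transcripts. Sizes moved: Mc5r went from 0.31 to 0.58 with a pseudocount of 0.1, and Dgat2l6 from 0.62 to 0.35 with limma-voom, 0.84 with a pseudocount of 0.1 and 0.94 on coding transcripts. Scaling, pseudocount, filter, coding transcripts, limma-voom and equal column sums each called 0 genes, as the reported fit did (686 at an unadjusted p under 0.05). With the replicate number as a block, 900 of 13817 genes were called and 0 members (adjusted p from 0.0767 for Dgat2l6 and 0.0773 for Awat1 to 0.685 for Scd3). Deviations of same-numbered libraries correlated at 0.722 across genes, but the labels do not say what a number shares. Leaving out a library called 9 to 71 genes, in fits with 1 library in a genotype that is assumed to vary like the other. The members' median then ran from -0.06 to 0.49, Awat2 from -0.06 to 0.49, Mc5r from 0.12 to 0.49, Scd1 from -0.15 to 0.58, Scd3 from -0.34 to 0.58, Elovl3 from -0.14 to 0.80, Pparg from -0.54 to 0.26 and Krt79 from -0.28 to 0.03. Equal column sums moved the median of all genes from -0.03 to -0.08. Depth limits Mc5r, the transcripts of Dgat2l6 and the minor transcripts most, which rest on the fewest reads.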

Other observations

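Neighbours of Awat2, Dgat2l6 and Awat1 on the X chromosome were taken by position, and none passed limma's test over all genes. Igbp1, a phosphatase regulator that lies between Awat2 and Dgat2l6, stood at 48.8 and 54.0 FPKM in the controls, then 55.5 and 63.2 in the cKO pair (0.20 ± 0.21 on the log2 scale, SE). Beyond Awat1, Pdzd11 had 20.7 and 25.2 against 24.5 and 31.0 (0.26 ± 0.23), and P2ry4, a nucleotide receptor, 7.66 and 3.93 against 5.74 and 4.83. Eda, the ectodysplasin ligand, on the far side of Awat2, had 2.51 and 2.91 against 2.18 and 2.26 (-0.20 ± 0.23). Igbp1 and Pdzd11 were thus as far apart by genotype as Awat2, at 0.21 ± 0.30, and the difference between these genes was not tested.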
